A study of Mus musculus with 24 samples.

Results

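Cdx2 binding was examined at 47 genes of the Wnt pathway, among 21911 protein-coding genes of the annotation. The genes were 9 Wnt ligands, 4 R-spondins, 10 Frizzled receptors, 4 Lrp and Lgr receptors, 6 secreted or surface inhibitors, 10 cytoplasmic transducers and 4 TCF/LEF factors. A gene was given a peak in a library when the summit of a listed peak lay in the gene body or within 10 kb to either side. The study mapped Cdx2, a homeodomain factor of the intestinal epithelium, by ChIPmentation, a form of ChIP-seq in which sequencing adapters are added to the precipitated chromatin by a transposase. Organoids were grown from 3 mice, out of proximal and out of distal colon, and were kept for 4 months in a medium with Wnt3a, EGF, Noggin and R-spondin 1 (WENR-plus). For the second condition they were plated in that medium for 2 days and then held for 3 days without the 4 factors (WENR-minus). The 12 Cdx2 libraries fell into 4 groups of 3, with both media for each site. All mice carried 1 copy of a Cre-inducible BRAFV600E allele and 1 copy of a tdTomato reporter, in every group alike. The mice were 8-week-old females, and each library pooled several wells of organoids. Because the medium without Wnt3a and R-spondin also lacked EGF and Noggin, the absence of the Wnt agonists cannot be told apart from the absence of the other two. The lists hold peaks and no expression, so the organoid identity was not checked against marker genes.

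Wnt ligands bind a Frizzled receptor together with Lrp5 or Lrp6 at the cell surface. This holds back a complex of Apc, Axin, the kinase Gsk3b and casein kinase that otherwise marks beta-catenin for breakdown, so that beta-catenin reaches TCF/LEF factors on DNA. R-spondins strengthen the signal through Lgr receptors, and in the colon this signal maintains the stem cells of the crypt base.

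The sequences at the summits show where the most often listed peaks lay and whether they held the letters that Cdx2 is known to bind. Each is 101 bases of the plus strand of GRCm38.p6 (mm10) centred on the median summit. Capitals mark the Cdx2 motif, which is TTTAT followed by G or T and then by A or G, or its reverse complement. A match describes the letters in the window and is not a measured contact. The first 4 are from the 3 regions listed in all 12 libraries that lay inside Lrp6, the Wnt co-receptor, and Lgr4, an R-spondin receptor. Regions are named by the distance of their median summit from the 5′ end of the gene. Lrp6 +100 kb was intronic, at chr6:134466953-134467053. Lgr4 +74.4 kb was intronic and 1842 bp wide, with 2 groups of summits at chr2:109991908-109992008 and chr2:109992939-109993039. Lgr4 +78.8 kb was intronic, at chr2:109996445-109996545.
Lrp6 +100 kb: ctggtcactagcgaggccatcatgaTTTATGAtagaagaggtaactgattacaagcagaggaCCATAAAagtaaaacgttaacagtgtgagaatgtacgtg
Lgr4 +74.4 kb, first summit group: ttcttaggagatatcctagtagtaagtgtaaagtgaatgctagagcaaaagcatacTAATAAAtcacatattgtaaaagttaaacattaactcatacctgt
Lgr4 +74.4 kb, second summit group: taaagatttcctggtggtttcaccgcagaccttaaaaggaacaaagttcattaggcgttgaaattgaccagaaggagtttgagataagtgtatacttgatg
Lgr4 +78.8 kb: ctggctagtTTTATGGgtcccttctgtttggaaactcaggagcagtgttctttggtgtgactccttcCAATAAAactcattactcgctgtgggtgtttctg

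The Lrp6 region held 2 motifs on opposite strands, and 10 of its 12 library summits had at least 1 within 50 bp. In the Lgr4 +74.4 kb region the first summit group had a motif at 10 of 12 summits and the second at 3 of 11, with none in the window at its median summit. The second group ranked higher, with a median percentile of 90.2 against 71.1 for the first. At Lgr4 +78.8 kb 10 of 12 summits had a motif.

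The next 2 sequences are those whose libraries differed most between the sites, both intronic and listed in proximal libraries alone. Lrp6 +18.9 kb, at chr6:134548054-134548154, was in 6 of 6 proximal and no distal list. Lgr4 +88.4 kb, at chr2:110005994-110006094, was in 5 of 6 proximal and no distal list. The share of all regions with such splits was not counted. The last 2 were chosen after their values were seen. They are the single region in the window of Wnt3, at chr11:103827328-103827428, and the highest-ranked region of Tcf7l2, the TCF factor known as the main partner of beta-catenin in the intestine, at chr19:55795467-55795567.
Lrp6 +18.9 kb: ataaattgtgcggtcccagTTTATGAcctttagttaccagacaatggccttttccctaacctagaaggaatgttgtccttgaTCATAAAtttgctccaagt
Lgr4 +88.4 kb: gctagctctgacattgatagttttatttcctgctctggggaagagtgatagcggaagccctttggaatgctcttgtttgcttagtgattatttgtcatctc
Wnt3 +53.2 kb: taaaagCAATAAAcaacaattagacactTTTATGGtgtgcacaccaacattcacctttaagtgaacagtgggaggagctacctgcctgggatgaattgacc
Tcf7l2 +53.7 kb: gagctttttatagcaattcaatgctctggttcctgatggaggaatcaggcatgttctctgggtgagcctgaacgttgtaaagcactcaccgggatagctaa

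A motif lay at 8 of 8 summits of the Wnt3 region, at 4 of 6 of Lrp6 +18.9 kb, at 2 of 5 of Lgr4 +88.4 kb and at 0 of 11 of Tcf7l2 +53.7 kb. Over all 81 regions in the windows of the 47 genes, 43 held a Cdx2 motif within 50 bp of the median summit. That is 53.1%, with a Wilson 95% interval of 42.3 to 63.6%, against 60.4% of the 61454 regions of the whole genome. The TCF/LEF motif, CTTTGA followed by A or T on either strand, lay in 5 of the 81, or 6.17%, against 5.51% of all regions. These 5 were at Fzd10, Lrp5, Lrp6, Tcf7l2 and Gsk3b, and each was listed in 1 or 2 libraries. The windows of the 47 genes thus held both motifs at shares near those of all regions.

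The 12 lists differed in length, from 5608 peaks in distal WENR-plus replicate 3 to 42192 in proximal WENR-plus replicate 2. The lists hold no read counts. The study's reporting summary gives aligned reads and the share of reads in peaks for each library, which were not used here. In WENR-plus both were higher in every proximal than in every distal library, and in WENR-minus the sites overlapped. The paper also reports that Cdx2 is expressed more highly toward the proximal end of the adult mouse colon. A part of expression, depth or enrichment in the list lengths was not tested. Proximal WENR-plus lists held 32033, 42192 and 13592 peaks and proximal WENR-minus lists 27921, 15940 and 11409. Distal WENR-plus lists held 7378, 13371 and 5608 and distal WENR-minus lists 21040, 7895 and 7904. List length therefore moved with colon site.

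The counts of Wnt genes with a listed Cdx2 peak were near those of genes at large, with no allowance for gene length. The median window was 51.3 kb for the 47 genes and 37.4 kb for all genes. In all, 26 of the 47 had a peak in at least 1 library, and 21 had none in any (44.7%, against 45.2% of all protein-coding genes). A peak in all 12 libraries was found at 3 of 47 genes, Lrp6, Lgr4 and Tcf7l2 (6.38%, against 6.77% of all genes). At least 9 libraries listed a peak at 7 of 47 (14.9%, against 15.2%). These were the same 3 with Gsk3b in 11 libraries, Tcf7l1 in 10, and Rspo2 and Csnk1a1 in 9. The middle of the range was thin: Wnt3 had 8 libraries, Fzd3, Fzd5 and Apc had 5 each, and 15 genes had 1 to 3. The windows together held 328 peaks over the 12 lists.

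Long genes filled the upper end. The median window was 170 kb for the 7 genes in at least 9 libraries and 37.0 kb for the 21 without a peak. Among the 12 Wnt genes with a window of at least 100 kb, 6 had a peak in at least 9 libraries, and 40.5% of all genes with such windows did. Among the 35 with shorter windows 1 did, Csnk1a1, against 10.9% of all genes of that kind.

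In single libraries the share of the 47 genes with a peak followed the share of all genes and was below it in most. In proximal WENR-plus 18, 18 and 12 genes had a peak, or 38.3, 38.3 and 25.5%, beside 40.0, 45.1 and 25.1% of all genes. In proximal WENR-minus 14, 10 and 10 had one, or 29.8, 21.3 and 21.3%, beside 36.9, 24.9 and 22.0%. In distal WENR-plus 6, 6 and 4 had one, or 12.8, 12.8 and 8.51%, beside 15.1, 24.2 and 13.0%. In distal WENR-minus 10, 7 and 8 had one, or 21.3, 14.9 and 17.0%, beside 29.4, 15.6 and 16.5%. The highest distal library had as many as the lowest 2 proximal ones. When every list was shortened to its 5608 peaks of lowest q, proximal libraries had 3 to 7 of the genes (6.38 to 14.9%) and distal libraries 4 to 8 (8.51 to 17.0%), beside 11.8 to 13.2% of all genes per library.

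**Figure D1:**
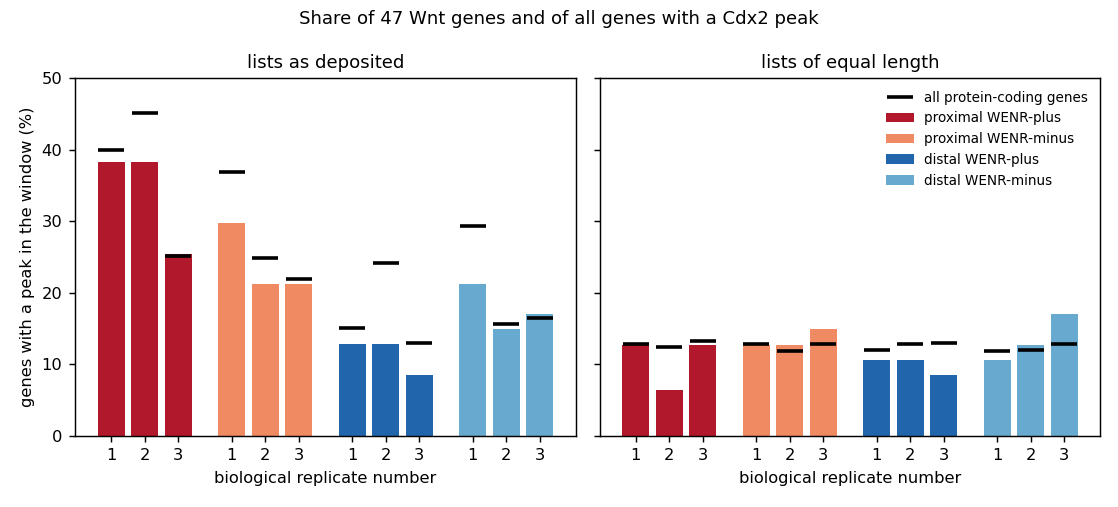
Bars give the percentage of the 47 Wnt genes with a Cdx2 peak in each library (x axis: biological replicate number within the 4 groups), and black marks give that of all 21911 protein-coding genes. In the lists as deposited the bars run from 8.51 to 38.3% and are lower in distal libraries as a group, whereas in lists of 5608 peaks each the sites overlap.

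Of the 9 Wnt ligands, 2 had a peak. Wnt3, a canonical ligand made by Paneth cells in the small intestine, ranked at percentiles 95.9, 92.7 and 71.2 of the list in proximal WENR-plus, and at 91.5, 82.9 and 78.6 in proximal WENR-minus. A percentile here is the rank of the fold enrichment over input within the library's own list, with 100 the strongest peak. In distal WENR-plus Wnt3 had no peak in any library, and in distal WENR-minus it had none in replicate 1 and ranked at 58.7 and 37.9 in replicates 2 and 3. All 6 proximal values were above both distal ones. The peak lay 53.2 kb from the 5′ end of Wnt3, downstream of the gene, and 0.053 kb from a start site of Nsf, which encodes a factor of vesicle fusion, so the window assigned it to Wnt3 although it lay inside Nsf. Wnt5a, a ligand best known for signalling without beta-catenin, had a peak 3.3 kb upstream in 3 proximal libraries. Wnt2b, Wnt4, Wnt6, Wnt7b, Wnt9b, Wnt10a and Wnt11 had none in any library.

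Of the R-spondins, the secreted agonists of which R-spondin 1 was part of WENR-plus medium, Rspo2 had peaks in 9 libraries. Its best percentile was 88.7, 87.3 and 41.7 in proximal WENR-plus and 73.4, 73.1 and 23.1 in proximal WENR-minus. Distal WENR-plus listed it in replicate 1, at 33.5, and distal WENR-minus in replicates 1 and 2, at 79.4 and 29.3. The values of the 2 sites overlapped. The 4 Rspo2 regions lay 82.5 to 154 kb from its 5′ end. Rspo3 was listed in 3 proximal libraries, Rspo4 in 1, and Rspo1 in none.

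Of the 10 Frizzled receptors 5 had a peak, all of them in proximal libraries and 1 also in a distal one. Fzd3 ranked at 36.2 and 8.24 in proximal WENR-plus replicates 1 and 3, and at 55.6, 35.4 and 62.6 in proximal WENR-minus. It had no peak in proximal WENR-plus replicate 2 nor in any distal library. Its region 5.8 kb into the gene was listed in the 3 proximal WENR-minus libraries and nowhere else, with folds of 5.13, 4.32 and 6.95. The share of all regions listed in that way was not counted. Fzd5, a receptor used in the intestinal epithelium, ranked at 73.8, 32.9 and 46.2 in proximal WENR-plus and at 5.58 in proximal WENR-minus replicate 1. Distal WENR-minus replicate 3 also listed it, at 34.0. These were ranks in the lower and middle part of the lists in most libraries. Fzd9 was listed in 2 and Fzd6 and Fzd10 in 1 library each, all proximal WENR-plus. Fzd1, Fzd2, Fzd4, Fzd7 and Fzd8 had none.

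The co-receptor Lrp6 had the highest ranks of the 47 genes, with a median best percentile of 90.2. It ranked at 97.7, 98.2 and 95.0 in proximal WENR-plus and at 97.3, 90.3 and 89.0 in proximal WENR-minus. Among distal libraries it ranked in WENR-plus at 79.5, 96.6 and 84.0, and in WENR-minus at 90.2, 76.3 and 80.3. The 2 sites overlapped in rank. Each of these was the region at +100 kb, 0.758 kb from the start site of a shorter annotated transcript, and Lrp6 was the gene with a peak within 3 kb of a start site in all 12 libraries. Its fold ran from 7.49 to 18.8. The second region, at +18.9 kb, had folds of 7.29, 9.41 and 5.11 in proximal WENR-plus and of 5.13, 6.01 and 8.52 in proximal WENR-minus, and was absent from the distal lists. Lrp5, the related co-receptor, was listed in 1 library at percentile 8.

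Lgr4, which binds R-spondins, ranked at 93.2, 86.0 and 74.0 in proximal WENR-plus and at 96.4, 81.0 and 92.6 in proximal WENR-minus. It ranked at 56.0, 92.0 and 76.4 in distal WENR-plus and at 90.2, 80.1 and 96.7 in distal WENR-minus. The lowest value was distal WENR-plus replicate 1, and the highest was also distal. The region at +88.4 kb, in no distal list, had folds of 5.07, 6.27 and 6.65 in proximal WENR-plus and of 5.37 and 6.66 in proximal WENR-minus replicates 1 and 3. Lgr6 was listed in 1 library.

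Of the 6 inhibitors, Dkk1, which blocks Lrp6, was listed in 1 proximal and 1 distal library, and Dkk2 in 1 distal library. Dkk2 was the single gene of the 47 found in distal lists alone, as were 1.67% of all genes. Apcdd1, a membrane inhibitor, was listed in 3 proximal libraries. Dkk3, Wif1 and Notum, the enzyme that removes the lipid of Wnt, had none. Of the 10 cytoplasmic transducers 6 had a peak. Gsk3b, a kinase of the breakdown complex, ranked at 94.1, 83.0 and 54.7 in proximal WENR-plus, at 85.2, 76.2 and 73.1 in proximal WENR-minus and at 87.7, 66.0 and 56.5 in distal WENR-minus. In distal WENR-plus it ranked at 12.5 and 66.9 and was absent from replicate 3. Its 4 main regions, intronic and 11.8 to 113.7 kb from the 5′ end, were each listed in 7 to 10 libraries.

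Csnk1a1, which encodes casein kinase 1 alpha, ranked at 65.8, 73.8 and 72.5 in proximal WENR-plus, at 49.5 in proximal WENR-minus replicate 1 and nowhere in replicates 2 and 3. Distal WENR-plus ranks were 56.0, 52.6 and 61.0, and distal WENR-minus ranks were 25.7 and 64.8 with replicate 2 absent. Its strongest region lay at the edge of the window, 10 kb upstream, and was in all 12 lists. Counting any overlap in place of the summit gave Csnk1a1 12 libraries instead of 9, since in those 3 libraries the summit of this region lay just outside the window and the region 6.2 kb upstream was not listed. Apc, the scaffold of the complex, ranked at 60.4, 76.7 and 41.7 in proximal WENR-plus and at 38.1 and 7.63 in proximal WENR-minus replicates 1 and 3. It was absent from proximal WENR-minus replicate 2 and from all 6 distal lists. Its region at +66.5 kb was in the 3 proximal WENR-plus libraries alone, with folds of 5.70, 6.90 and 5.87. The same split was seen at Tcf7l2 +127 kb, and the share of all regions with it was not counted. Ctnnb1, which encodes beta-catenin, was listed in 3 WENR-minus libraries, 2 proximal and 1 distal, and in no WENR-plus library. Its peak lay 8.7 kb upstream, at percentiles 79.7, 56.0 and 36.6. Dvl2 and Nkd1 were listed in 1 library each, and Axin1, Dvl1, Dvl3 and Nkd2 in none.

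The 4 TCF/LEF factors, which carry the signal on DNA, held 105 of the 328 peaks. Tcf7l2 had 66 peaks in 13 regions, the most of the 47 genes, and a window of 212 kb. Its best percentile was 86.3, 92.2 and 80.5 in proximal WENR-plus, 91.0, 92.2 and 84.4 in proximal WENR-minus and 80.6, 80.1 and 92.4 in distal WENR-minus. In distal WENR-plus it was 33.5, 95.4 and 27.0, so this group held both the lowest 2 values and the highest. The regions at +53.7 kb and +122 kb were each in 11 lists. Tcf7l1, a TCF factor known mainly as a repressor, ranked at 76.8, 79.1 and 71.2 in proximal WENR-plus, at 83.3, 59.0 and 68.2 in proximal WENR-minus and at 36.6, 76.3 and 50.2 in distal WENR-minus. Distal WENR-plus listed it in replicate 2, at 76.7. Its main regions were at the 3′ end, 153.7 to 169.2 kb from the 5′ end. Tcf7 was listed in 1 library and Lef1 in none.

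**Figure D2:**
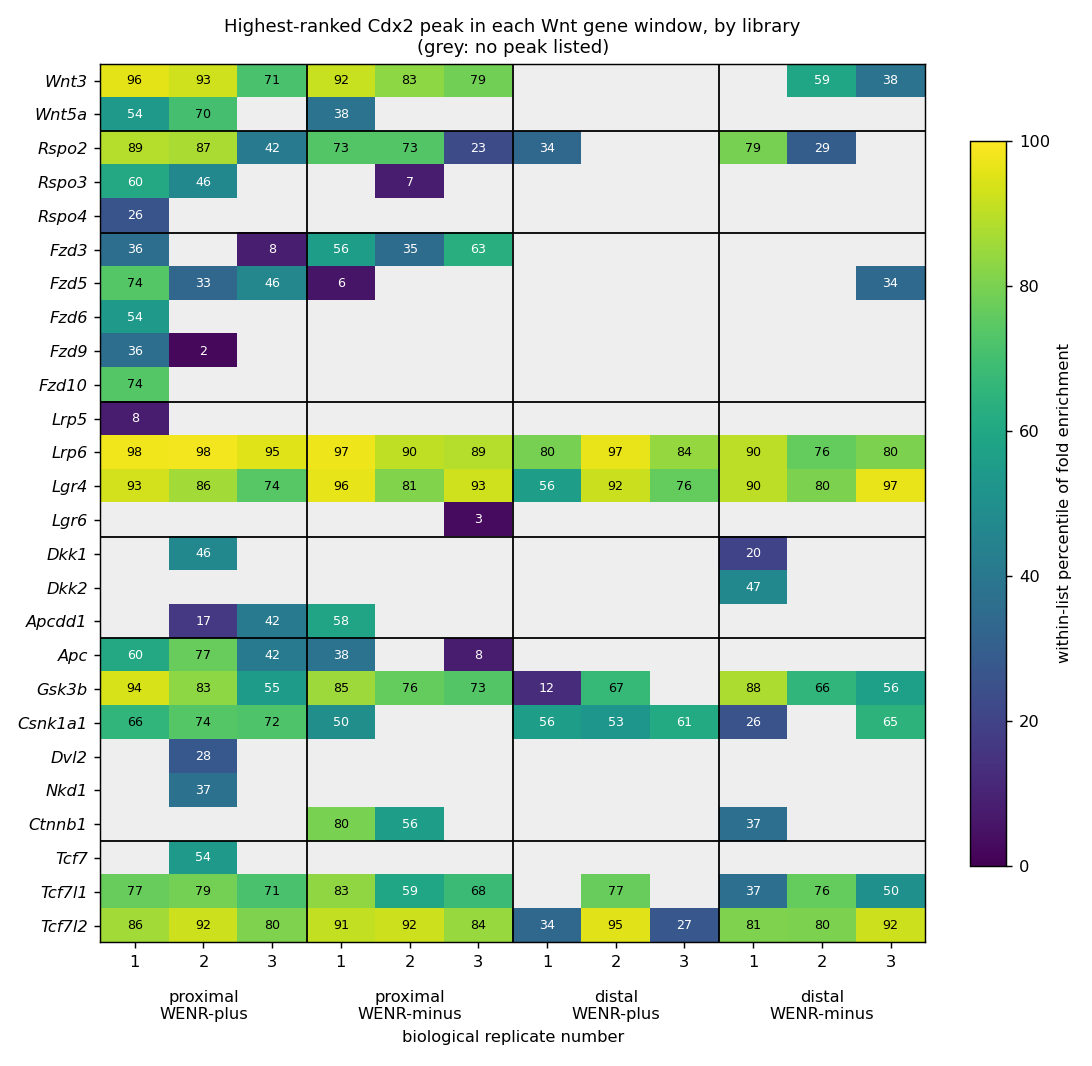
Each row is 1 of the 26 Wnt genes with a peak and each column 1 library; the number and colour give the within-list percentile of fold enrichment of the gene's best peak, and grey means that no peak was listed. Lrp6, Lgr4 and Tcf7l2 are filled in all 12 columns, and Wnt3, Fzd3 and Apc are filled mainly on the proximal side.

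Most of the 81 regions lay inside the genes. There were 54 in introns, 3 in exons, 15 upstream and 9 downstream, and 9 were within 3 kb of a start site of the gene. The nearest protein-coding start site belonged to the gene in 75 of 81. The exceptions were at Wnt3, Apc, Tcf7, Tcf7l1, Csnk1a1 and Dvl2. A region was listed in 1 library in 39.5% of the 81, against 42.2% of all regions, and in all 12 libraries in 4 (4.94%, against 3.38%).

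**Figure D3:**
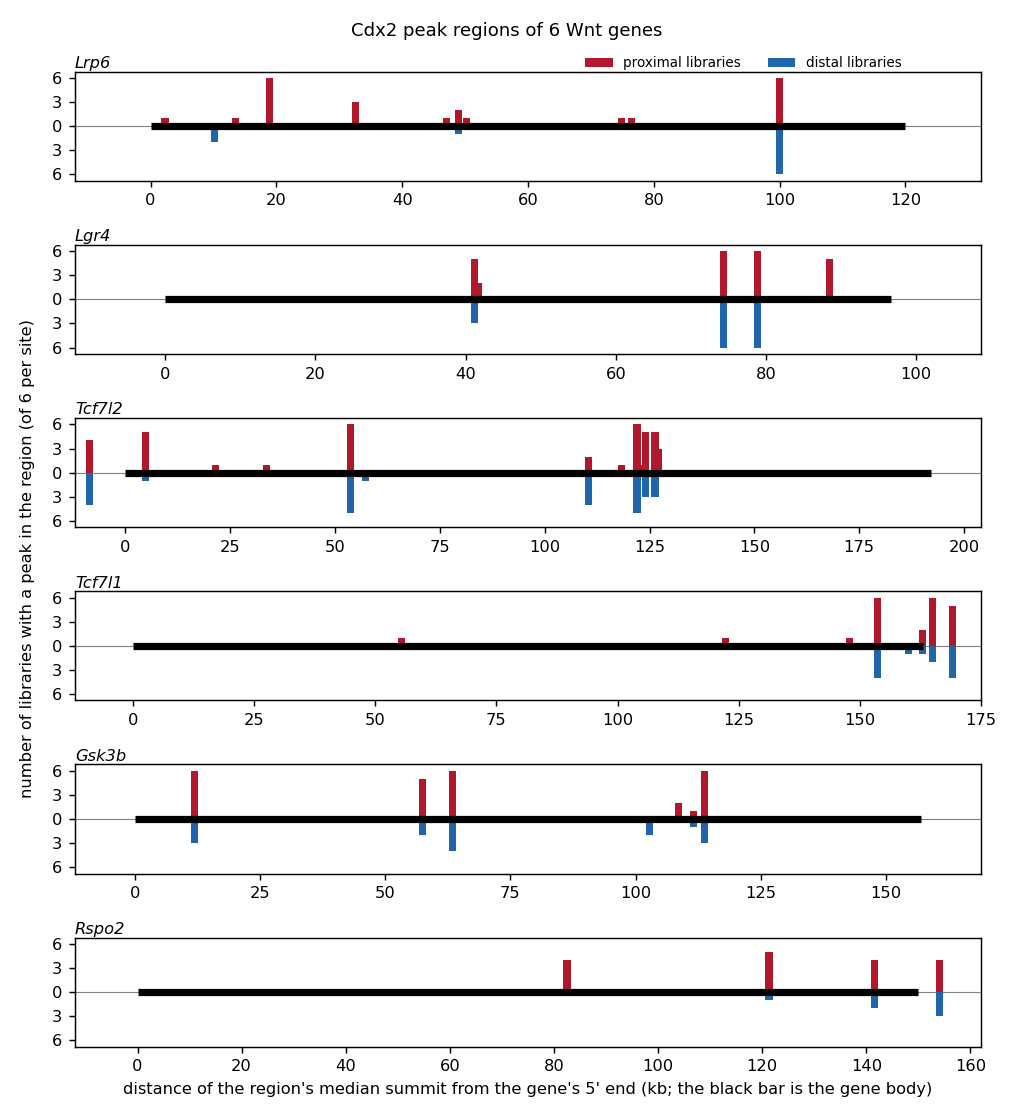
For Lrp6, Lgr4, Tcf7l2, Tcf7l1, Gsk3b and Rspo2, each listed in at least 9 libraries, bars show how many of 6 proximal (up, red) and 6 distal (down, blue) libraries listed each region, placed by its distance in kb from the 5′ end of the gene (black bar: gene body). Lrp6 +100 kb and Lgr4 +74.4 kb and +78.8 kb reach 6 on both sides, and Lrp6 +18.9 kb and Lgr4 +88.4 kb show no distal bar.

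The first comparison asked whether Cdx2 peaks at Wnt genes differed between proximal and distal organoids. A peak was listed in at least 4 more proximal than distal libraries at 3 of 47 genes: Wnt3 with 6 against 2, Fzd3 with 5 against 0 and Apc with 5 against 0. This was 6.38% of the 47, and 5.36% of all genes passed the same rule. None passed it in the distal direction, which 0.132% of all genes did. More proximal than distal libraries listed a peak at 20 of the 47 genes (42.6%, against 40.7% of all genes), and more distal than proximal libraries at 2 (4.26%, against 3.35%). A peak in proximal lists alone was found at 14 of the 47, and at 18.9% of all genes. With lists of equal length the difference of 4 remained at Wnt3, whose only peak lay inside Nsf, still 6 against 2. Fzd3 was then listed in 1 proximal library and Apc in none. These lists left 2 of the 47 genes in more proximal libraries (4.26%, against 9.09% of all genes) and 3 in more distal ones (6.38%, against 9.71%). In WENR-plus alone, Wnt3, Fzd5 and Apc had a peak in each of the 3 proximal libraries and in none of the distal ones, as did 3.92% of all genes. In WENR-minus alone Fzd3 did, and 1.45% of all genes did. No test was run per gene on presence. Within 1 medium, 3 libraries against 3 cannot go below an exact permutation p of 0.1, and across media the 6 libraries of a site come from 3 mice.

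Among the 81 regions, 9 were listed in at least 4 more proximal than distal libraries (11.1%, Wilson 95% interval 5.96 to 19.8%), against 6.60% of all regions. They were Wnt3 +53.2 kb, Fzd3 +69.1 kb, Lrp6 +18.9 kb, Lgr4 +88.4 kb, Apc +2.9 kb, Tcf7l1 +165 kb, Tcf7l2 +4.8 kb, Rspo2 +121.3 kb and Rspo2 +82.5 kb. Regions of 1 gene share their neighbourhood, and the interval treats them as separate. Lrp6 and Lgr4 each held a region listed in every library and another absent from the distal lists, which were shorter as a group. Regions were not recounted with lists of equal length.

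The second comparison asked whether the medium with Wnt3a and R-spondin 1 went with other Cdx2 peaks at Wnt genes. None of the 47 genes had a peak in at least 4 more WENR-plus than WENR-minus libraries, and 0.388% of all genes did. None passed the rule in the other direction, and 0.0822% of all genes did. More WENR-plus than WENR-minus libraries listed a peak at 14 genes (29.8%, against 24.3% of all genes), and more WENR-minus libraries at 8 (17.0%, against 13.1%). The largest differences were of 3 libraries, at Csnk1a1 with 6 WENR-plus against 3 WENR-minus and at Ctnnb1 with 0 against 3. At Csnk1a1 the region 6.2 kb upstream accounted for these libraries, listed in 6 WENR-plus and 3 WENR-minus libraries, while the region 10 kb upstream was in all 12 lists. Within 1 site, none of the 47 genes had a peak in all 3 libraries of 1 medium and none of the other. Of all genes, 0.694% did for WENR-plus and 0.0319% for WENR-minus in proximal organoids. In distal ones it was 0.119% and 0.288%. Single regions with such a split were Fzd3 +5.8 kb, Apc +66.5 kb and Tcf7l2 +127 kb, without a share of all regions.

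Of the regions of the Wnt genes, 4 were in all 12 lists, so that their fold enrichment could be compared across groups with limma, in 1 fit over the 2079 regions common to all lists. The log2 fold was taken relative to the library's median over these regions, since these medians differed between libraries. Without that step the median difference between the sites was 0.456 in WENR-plus and 0.297 in WENR-minus on the log2 scale. A region passed at a Benjamini-Hochberg adjusted p under 0.05. Among the 4, Csnk1a1 -10 kb had its median summit just outside the 10 kb window, and entered through the libraries whose summit lay inside. Its nearest coding start site was that of Arhgef37, at 8.65 kb.

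At Lrp6 +100 kb the centred log2 fold was 0.41, 0.51 and 0.52 in proximal WENR-plus and 0.44, 0.15 and 0.20 in proximal WENR-minus. Distal values were 0.08, 0.47 and 0.18 with WENR-plus and -0.05, -0.07 and -0.06 with WENR-minus. The distal WENR-minus values were below all others, and the other 3 groups overlapped. The proximal minus distal difference was 0.24 in WENR-plus (SE 0.20, limma adjusted p = 0.536) and 0.32 in WENR-minus (SE 0.20, limma adjusted p = 0.403). The WENR-plus minus WENR-minus difference was 0.22 in proximal (limma adjusted p = 0.843) and 0.30 in distal organoids (limma adjusted p = 0.659), each with an SE of 0.20. Without the median step the site differences were 0.72 in WENR-plus (limma adjusted p = 0.057) and 0.62 in WENR-minus (limma adjusted p = 0.132).

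At Lgr4 +78.8 kb the centred values were -0.56, -0.93 and -1.10 in proximal WENR-plus and -0.58, -0.29 and -0.15 in distal WENR-plus, so the groups overlapped by 1 library. In WENR-minus they were -0.79, -0.81 and -0.36 in proximal and -0.54, -0.23 and -0.56 in distal libraries. The site difference was -0.52 in WENR-plus (95% interval -1.0 to -0.05, limma adjusted p = 0.193) and -0.21 in WENR-minus (-0.69 to 0.27, limma adjusted p = 0.674). Without the median step these were -0.05 and 0.09.

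At Lgr4 +74.4 kb, where the strongest of 2 summit groups was taken in each library, the values were -0.13, -0.64 and -0.45 in proximal WENR-plus and 0.29, -0.22 and 0.42 in proximal WENR-minus. Distal values were -0.26, 0.11 and 0.00 in WENR-plus and -0.05, 0.00 and 0.75 in WENR-minus. The strongest summit was in the first group in proximal WENR-plus replicates 2 and 3 and in distal WENR-plus replicate 1. It was in the second group in all other libraries, so comparisons with WENR-plus partly set different positions against each other. The medium difference in proximal organoids was -0.57 (-1.11 to -0.02, limma adjusted p = 0.538) and in distal ones -0.28 (-0.83 to 0.26, limma adjusted p = 0.759). The site difference was -0.36 in WENR-plus (limma adjusted p = 0.472) and -0.07 in WENR-minus (limma adjusted p = 0.913), and without the median step it was 0.12 and 0.23.

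At Csnk1a1 -10 kb the values were -1.01, -0.87 and -0.49 in proximal WENR-plus and -1.42, -0.56 and -0.67 in proximal WENR-minus. They were -0.26, -0.36 and -0.42 in distal WENR-plus and -0.40, -0.32 and -0.37 in distal WENR-minus. All 6 distal values were above all 6 proximal ones. The site difference was -0.44 in WENR-plus (95% interval -0.95 to 0.07, limma adjusted p = 0.308) and -0.52 in WENR-minus (-1.03 to -0.01, limma adjusted p = 0.249). These values are relative to the library median, and without that step the difference was 0.04 in WENR-plus and -0.22 in WENR-minus. The log2 folds of the sites then overlapped, from 2.17 to 3.07 in proximal and from 2.66 to 3 in distal libraries. How many of all tested regions separated the sites as fully after centring was not counted. The medium differences were 0.09 in proximal and 0.01 in distal organoids.

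None of the 4 regions passed in any of the 4 comparisons. Over all 2079 regions the site comparison called 129 in WENR-plus (6.20%), 68 higher and 61 lower in proximal, and 62 in WENR-minus (2.98%), 46 higher and 16 lower. Without the median step the calls were 385 higher and 3 lower in WENR-plus and 195 higher and 4 lower in WENR-minus. The medium comparison called 0 regions (0%) in proximal and 0 (0%) in distal organoids by limma, with 181 and 223 at an unadjusted p under 0.05. All 16 intervals, of 4 regions in 4 comparisons, reached past 0.5 on the log2 scale in at least 1 direction, so differences of that size are not excluded by these intervals. The medium effect at these regions did not differ detectably between the sites, with limma adjusted p = 0.998 for each interaction.

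**Figure D4:**
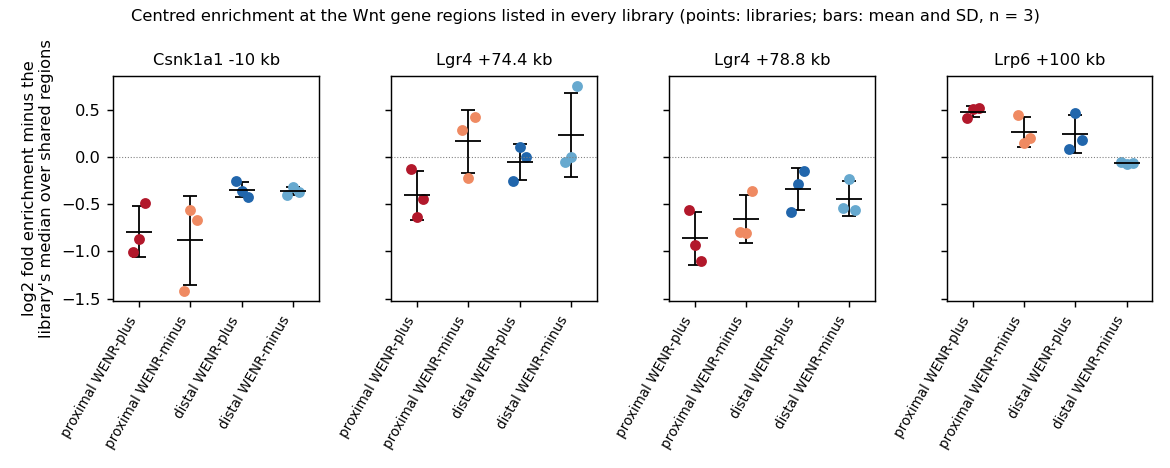
Points are single libraries and bars the mean and SD (n = 3) of log2 fold enrichment minus the library's median over 2079 regions, for the 4 Wnt gene regions in all 12 lists, by group. Lrp6 +100 kb lies between -0.07 and 0.52. The distal points at Csnk1a1 -10 kb, from -0.42 to -0.26, are above the proximal ones, but without the median step the sites overlap there. The median summit of that region is just outside the 10 kb window of Csnk1a1.

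Other genes of the pathway gave like counts. Of 55 further Wnt pathway genes, 4 had a peak in all 12 libraries (7.27%, against 6.77% of all genes). They were Rnf43, a ubiquitin ligase that removes Frizzled receptors, Wls, which carries Wnt to the surface, the co-repressor Tle4 and the receptor Ror2. No library listed a peak at 25 (45.5%, against 45.2%), among them Axin2, Porcn and Sfrp1. A surplus of at least 4 proximal libraries was seen at 4, Ctbp2, Frzb, Ryk and Vangl1 (7.27%, against 5.36%). A surplus of at least 4 WENR-plus libraries was seen at 1, Celsr1 (1.82%, against 0.388%). Of 19 known Wnt target genes, 7 of them among the 47, Cd44 and Rnf43 had a peak in all 12 libraries (10.5%, against 6.77%). Among the 19, 8 had none (42.1%, against 45.2%), including Axin2, Myc, Ascl2 and Ccnd1.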

How the data were processed

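Cdx2 ChIPmentation peak lists of 12 libraries (GEO labels: 4 groups of 3 biological replicates, each with its own input) were used as deposited. Per the submitters' processing notes, the authors used Trimmomatic 0.39 for trimming, Bowtie2 2.4.5 for alignment to mm10 and SAMtools 1.13 to drop duplicates. These versions are those of the notes, and the study's software list names earlier versions of Bowtie2 and SAMtools. The authors ran MACS2 2.2.7.1 on each library against its matched input at q 0.01. The deposited values were the fold enrichment (a ratio to the input-based background), −log10 values of p and of q, a score and the summit offset. MACS2 folds take few distinct values in short lists, so peaks of a list can tie in rank. Input libraries entered through the authors' calls.

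Summits were assigned to GENCODE vM21 genes with 10 kb to either side. Overlapping peaks of the 12 lists were merged into 61454 regions. Folds at the 2079 regions in all lists were compared on the log2 scale, minus the library median, with limma 3.58.1 in R 4.3.3, 4 groups sharing 1 spread, with Benjamini-Hochberg adjustment over all regions. The fit was tested on simulated data. Other steps used Python 3.11.15 and pandas 2.3.3. The 47 genes, the other gene lists and the rules were chosen with earlier results of these data known, so the lists are described by counts without a test. Values in every library were given, by rule, for genes with a peak in all 12 libraries, for those differing by at least 4 libraries between sites or media or by 3 of 3 within one, and for those with a tested region. Rspo2, Gsk3b, Tcf7l1 and Ctnnb1 were added after their values were seen, as were the sequences of Wnt3 and Tcf7l2. Replicates came from 3 mice by the methods, while the labels give only replicate numbers. Same-numbered libraries deviated together in the 2 proximal groups, with correlations of 0.117, 0.401 and 0.570, so the comparisons were also fitted with the number as a block. Alternatives covered the q threshold, list length, window, overlap rule, scaling, regions tested and libraries left out.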

Additional observations from a re-analysis of the deposited data

How the results depend on the processing

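The count of 3 Wnt genes with a peak in all 12 libraries became 1, Lrp6, when the summit had to lie within 3 kb of a start site, and stayed within 1.5 times under the other alternatives. The 21 genes without a peak became 37 with lists of equal length, 32 with the gene body alone and 40 with the promoter alone, since each of these leaves fewer peaks to count. The same settings raised the share of all genes to 74.0, 64.9 and 77.3%. The 3 genes with at least 4 more proximal libraries became 1 with lists of equal length (Wnt3), 1 with the promoter alone (Apc), and 0 to 4 with libraries left out. It was 0 without replicate 1 or without replicate 3, where 4 libraries a site remain and the rule asks for all against none. The count in the WENR-plus direction became 1 (Csnk1a1) at a −log10 q of at least 5, and ran from 0 to 1 with libraries left out, at 1 without proximal WENR-minus replicate 1, distal WENR-minus replicate 1 or distal WENR-minus replicate 3. The count in the WENR-minus direction became 1 (Gsk3b) with lists of equal length. The shares of all genes that passed the medium rules at these settings are not given here. Ranking by −log10 q moved the median percentile of Lrp6 from 90.2 to 89.3, of Lgr4 from 88.1 to 87.1 and of Tcf7l2 from 85.3 to 84.1.

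None of the 4 Wnt gene regions passed in 332 results, 1 per region, comparison and setting, with a smallest limma adjusted p of 0.057. These results draw on the same 12 libraries and are not independent. The counts over all regions moved more. Without median centring 388 regions were called for site in WENR-plus and 199 in WENR-minus. With percentiles in place of folds the counts were 28 and 4 for site and 17 for medium in distal organoids. With the replicate block they were 255 and 198 for site, 24 for medium in distal and 0 for medium in proximal organoids. Same-numbered libraries also correlated positively in both site comparisons, at 0.221, 0.033 and 0.469 in WENR-plus and 0.127, 0.098 and 0.454 in WENR-minus. In the distal media comparison the correlations were 0.353, -0.01 and 0.377. The labels do not tie a number to a mouse across groups, so the block stayed an alternative to the main fit. With regions of at least 9 lists, 168 were called for site in WENR-minus and 1 for medium in distal organoids, and none of 12 Wnt gene regions passed. Leaving out libraries gave 0 to 136 calls for site in WENR-plus, 0 to 82 in WENR-minus and 0 to 2 for medium in distal organoids, with 0 for both site comparisons without replicate 1 or 2. In WENR-plus the count fell to 32 and 25 without proximal replicates 1 and 2, and to 44, 50 and 10 without distal replicates 1, 2 and 3. In WENR-minus it fell to 32 and 16 without proximal replicates 1 and 2 and to 27 without distal replicate 2. The cause of these changes was not tested. With 3 libraries a group and no read counts in the lists, absence of a peak means that none passed the authors' threshold.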
